A study of Mus musculus with 19 samples.

Results

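The genes followed here are 46 genes of cell division, taken by name from a list and read in every liver library of the study. They fall into 13 genes of the G1/S transition and DNA replication, 31 genes of mitosis and 2 transcription factors of the G2/M transition (Foxm1 and Mybl2), out of 14743 genes tested. All 46 passed the filter on low values, a normalized count of at least 10 in at least 3 libraries. Livers of 19 male C57BL/6JOlaHsd mice were sequenced, 1 library per mouse, after 4 months on a normal diet (ND, 13.9% of kcal as fat) or a Western diet (WD, 50.5% of kcal as fat, also rich in sugars and cholesterol and low in choline). Mice were 4 weeks old when the diets began, and in the last 8 weeks a pump under the skin delivered saline or AN1284, an indoline derivative, to each of them. The groups were ND saline (n = 3), ND with AN1284 at 1 mg/kg/day (n = 3) or 5 mg/kg/day (n = 3), WD saline (n = 3), and WD with AN1284 at 1 mg/kg/day (n = 4) or 5 mg/kg/day (n = 3). All mice were of the same strain, and the controls had a pump too. The sample was whole liver, so all its cell types share each library.

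A dividing cell first copies its DNA and then separates the copies. E2F transcription factors and cyclin E with its kinase open the S phase, the MCM helicase unwinds the DNA, PCNA clamps the polymerases to it, and ribonucleotide reductase and thymidylate synthase supply the nucleotides. Later the FOXM1 and MYBL2 factors switch on a second wave of genes, cyclins A and B with CDK1 drive entry into mitosis, the kinetochore and the spindle move the chromosomes, the spindle checkpoint holds anaphase back, and the anaphase promoting complex with CDC20 ends it before cytokinesis. The adult liver is a quiet tissue in which few hepatocytes divide, and most of these genes are known there from regeneration after injury. Many hepatocytes are polyploid, which comes from cycles that copy DNA without completing cell division.

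The 2 waves are known to be read through different promoter elements, so the sequences before some start sites are shown here with the letters searched for in capitals. The search looked on both strands for the cell cycle homology region (CHR, TTTGAA or TTCGAA), for CCAAT, the letters bound by NF-Y, and for 4 forms of the E2F site (TTTCCCGC, TTTGGCGC, TTTCGCGC and TTTGCCGC). The sequences are RefSeq promoters of GRCm38.p6, and each shows the 120 bases before the start site, 5′ to 3′ on the strand of the gene. Cdc20 (chr4:118437344-118437463, minus strand), Cdk1 (chr10:69352913-69353032, minus strand), Ube2c (chr2:164769809-164769928, plus strand) and Kif11 (chr19:37376262-37376381, plus strand) are mitotic genes with a CHR close before the start. Mcm6 (chr1:128359706-128359825, minus strand) is a replication gene with E2F letters, and Mcm2 (chr6:88898781-88898900, minus strand) is the replication gene called higher on the WD and lower at both doses below. On the opposite strand the CHR reads TTCAAA and CCAAT reads ATTGG.
Cdc20: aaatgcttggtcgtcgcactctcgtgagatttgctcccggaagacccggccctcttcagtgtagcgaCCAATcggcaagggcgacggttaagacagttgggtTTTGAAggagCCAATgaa
Cdk1: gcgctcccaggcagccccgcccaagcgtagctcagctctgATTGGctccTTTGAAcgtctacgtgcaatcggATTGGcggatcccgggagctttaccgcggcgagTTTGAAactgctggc
Ube2c: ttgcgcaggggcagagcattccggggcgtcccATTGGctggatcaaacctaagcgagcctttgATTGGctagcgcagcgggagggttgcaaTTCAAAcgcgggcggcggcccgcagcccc
Kif11: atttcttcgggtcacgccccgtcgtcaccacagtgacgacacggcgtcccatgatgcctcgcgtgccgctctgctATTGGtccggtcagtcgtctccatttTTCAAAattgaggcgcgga
Mcm6: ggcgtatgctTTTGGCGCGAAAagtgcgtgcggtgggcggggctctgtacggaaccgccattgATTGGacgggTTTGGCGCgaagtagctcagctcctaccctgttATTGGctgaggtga
Mcm2: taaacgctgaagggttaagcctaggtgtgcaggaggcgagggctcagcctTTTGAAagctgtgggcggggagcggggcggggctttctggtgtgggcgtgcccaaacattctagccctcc

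Counted from the start site, the CHR begins at −18 in Cdc20 and at −71 and −15 in Cdk1, with CCAAT further upstream in both and at −8 in Cdc20. In Ube2c it begins at −29 and in Kif11 at −19, on the opposite strand. Mcm6 holds E2F letters at −110, −106 and −47, of which the first pair overlap each other, and Mcm2 a CHR at −70. Promoters of the table, from 250 bases before to 50 after the start, were found for 39 of the 46 genes, 27 of them mitotic and 11 of them replication genes. The CHR was in 22 of the 27 mitotic promoters and in 2 of the 11 replication promoters, against 21.7% of the 27025 genes in the table. CCAAT was in 21 of 27 and 8 of 11, against 41.1% of all genes. E2F letters were in 1 of 27 and 4 of 11, against 2.6% of all genes. CHR and CCAAT together were in 19 of the 27 mitotic genes, in 2 of the 11 replication genes and in 9.7% of all genes. In 20 of the 22 mitotic genes with a CHR it lay from −60 to 50. These are matches of letters, not measured binding, and the letters chosen are the textbook ones for these genes.

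**Figure D1:**
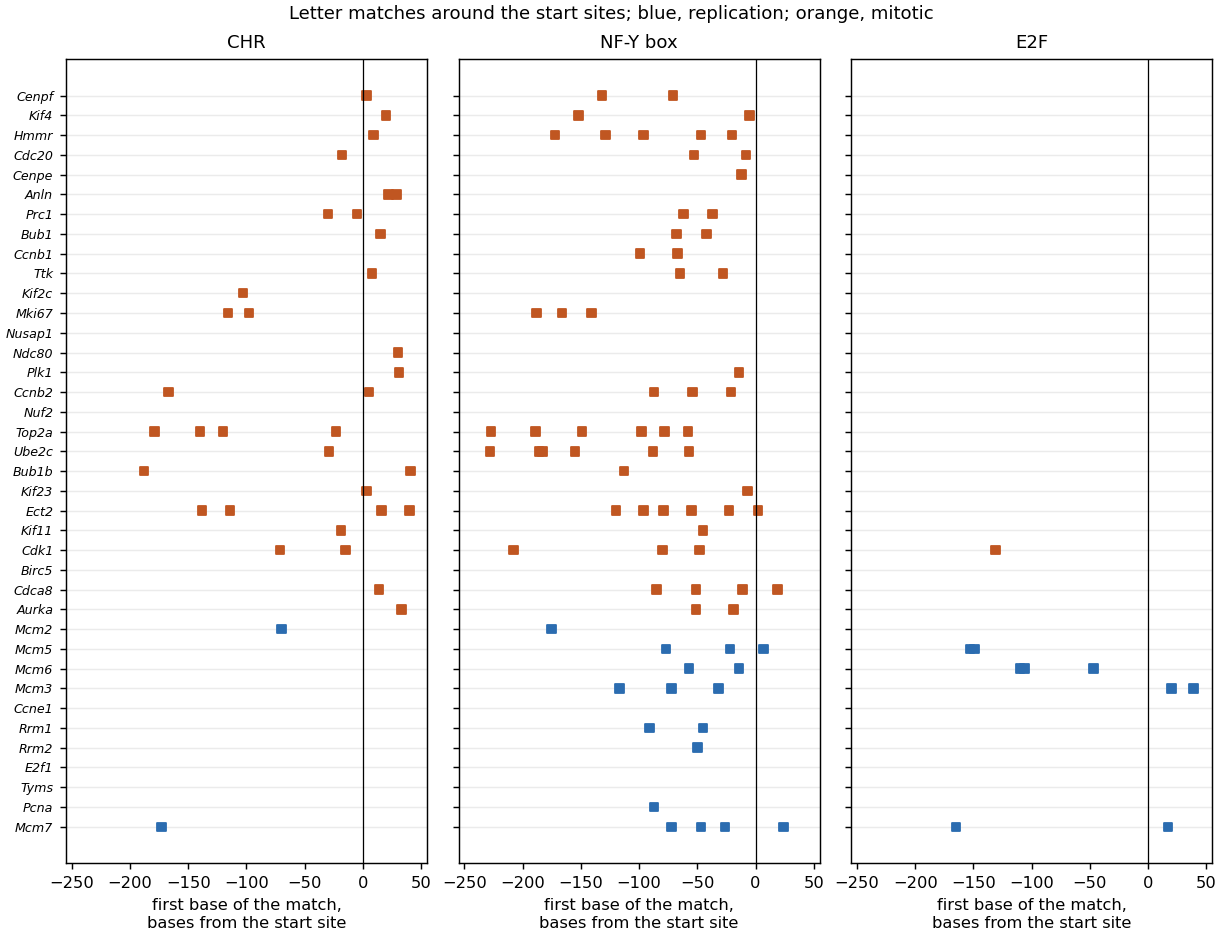
Position of each match of the CHR, of the CCAAT letters (panel NF-Y box) and of the E2F letters, in bases from the start site (x axis), for 38 replication and mitotic genes with a promoter in the table, ordered by their change on the WD. CHR matches lie in 22 of 27 mitotic genes and 2 of 11 replication genes.

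The libraries held 23326800 to 32596067 counted reads. The authors divided the counts by size factors, which were 0.7592 to 0.7908 in ND saline and 1.0304 to 1.2679 in WD saline. These values are called normalized counts here, and fold changes are differences of log2(normalized count + 1), which understate the change of genes with low counts. The hepatocyte markers were present in each library, with a summed level of 1889411 to 2227225 in WD saline and 4185671 to 4445140 in ND saline. The ND saline livers stood apart in the heat shock genes, with a summed level of 63125 to 69643 against 32711 to 48520 in the other 16 livers. The comparisons with ND saline rest on these 3 livers, and the main diet comparison was therefore repeated against the ND livers given 1 mg/kg/day.

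In ND saline livers most mitotic genes were lower than most replication genes. Per kilobase of exon, the median mitotic gene had a mean level of 4.1 normalized counts in ND saline and the median replication gene 32.3. The lowest per kilobase was Ttk, a checkpoint kinase, at 0.5 ± 0.3 (SD, n = 3), and the highest of the mitotic genes was Aurka at 15.2 ± 3.0. Pcna, at 209.0 ± 8.0, was the highest of all 46. The replication list also reached down to Ccne1 at 6.9 ± 2.2 and Ccne2 at 8.7 ± 0.9, below Aurka. In WD saline livers the median mitotic gene stood at 20.2 per kilobase and the median replication gene at 47.7, with Cdc20 the highest mitotic gene at 94.1 ± 49.3.

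On the WD with saline, all 31 mitotic genes were higher than on the ND with saline, while 6 of the 13 replication genes were. Of all genes tested, 28.1% were called higher (limma on log2 values, adjusted p under 0.05) and 25% lower. The median log2 fold change was 2.76 over the mitotic genes and 0.45 over the replication genes, against 0.01 over all genes tested. The lowest and highest mitotic changes were 0.88 ± 0.31 (SE) for Aurka, a kinase of the spindle poles, and 4.16 ± 0.61 for Cenpf, a kinetochore protein. In 30 of the 31 the 3 WD livers all lay above the 3 ND livers, which held for 31.1% of all genes. Whole liver RNA cannot tell more dividing cells from more of these transcripts per cell.

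Mki67, the antigen used to mark cycling cells, was read at 70.27, 56.64 and 82.19 normalized counts in ND saline and at 455.2, 606.4 and 687.0 in WD saline. The groups were far apart, and the log2 fold change was 3.04 ± 0.435 (adjusted p = 3.09e-05). Top2a, which untangles sister chromatids, was at 76.66, 30.29 and 48.05 on the ND and 198.0, 305.7 and 335.2 on the WD. Every WD liver was again above every ND liver.

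The cyclins and the kinase that start mitosis moved together, with all 4 called higher and a median log2 fold change of 2.44. Ccnb1 (cyclin B1) went from 10.22, 5.268 and 5.058 to 42.7, 80.74 and 121.5. Ccna2 (cyclin A2) went from 30.66, 30.29 and 29.08 to 101.9, 168.1 and 216.9. The kinase they activate, Cdk1, was less changed, from 54.94, 34.24 and 41.73 to 75.7, 147.5 and 165.6, a log2 fold change of 1.5 ± 0.36 (adjusted p = 0.00218). Of the other mitotic kinases, Plk1 was at 12.78, 7.903 and 17.7 and at 47.56, 112.0 and 129.3. Aurkb, the kinase of the chromosomal passenger complex, was at 24.28, 3.951 and 13.91 and at 48.53, 63.44 and 66.25. Birc5 (survivin), a partner in that complex, was at 23.0, 22.39 and 39.2 and at 49.5, 89.8 and 88.34, with no overlap in any of these genes. Aurka was the mitotic gene whose groups met, with 46.79 as the highest ND value and 42.7 as the lowest WD value.

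The 3 genes of the spindle checkpoint and the 4 of the kinetochore were all called higher, with medians of 3.16 and 3.12. Bub1, which had 2.555, 2.634 and 2.529 normalized counts on the ND, reached 33.0, 40.37 and 35.49 on the WD. Bub1b (BUBR1) was at 20.44, 15.81 and 16.44 and at 70.85, 98.86 and 87.55, and with 2.22 ± 0.27 it had one of the smaller standard errors. Ndc80, which holds the microtubule end at the kinetochore, was at 3.833, 2.634 and 6.323 and at 28.15, 42.02 and 34.7. The kinetochore motor Cenpe was at 11.5, 5.268 and 10.12 and at 72.79, 111.2 and 130.9, a log2 fold change of 3.43 ± 0.41 (adjusted p = 2.9e-06). Values on the ND were a few counts per library in Bub1, Ndc80 and Ttk, so their folds carry the pseudocount of 1.

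Among the 6 spindle motors and microtubule proteins the median was 3.08. Kif11, the motor that pushes the spindle poles apart, was at 31.94, 54.0 and 21.5 and at 86.38, 98.04 and 140.4. It changed least of these, by 1.64 ± 0.39, and Kif4, a chromosome-bound motor, most, by 3.91 ± 0.55. The 5 genes of cytokinesis had a median of 2.55. Prc1, which bundles the midzone microtubules, was at 12.78, 2.634 and 27.82 and at 81.52, 125.2 and 155.4. Anln (anillin), the scaffold of the contractile ring, was at 8.944, 6.585 and 12.65 and at 86.38, 107.1 and 128.6. The separation of the diets was thus seen from mitotic entry to the last step. Cdc20, the activator of the anaphase promoting complex, was at 17.89, 9.22 and 13.91 and at 69.88, 238.1 and 219.3. Its partner enzyme Ube2c was at 12.78, 21.07 and 22.76 and at 55.32, 110.4 and 134.1.

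Most of the replication genes called higher were helicase subunits. In the MCM helicase 5 of 6 subunits were called higher. Mcm2 was at 108.6, 123.8 and 147.9 on the ND and at 330.0, 310.6 and 307.6 on the WD, a log2 fold change of 1.32 ± 0.16 (adjusted p = 2.83e-06). Mcm5 was at 48.55, 76.39 and 67.02 and at 159.2, 173.8 and 144.3, and Mcm6 at 115.0, 147.5 and 189.7 and at 301.8, 318.0 and 318.6. Mcm3 rose by 0.95 ± 0.17 and Mcm4 by 0.63 ± 0.16. Mcm7 was the exception, with 387.2 to 431.2 on the ND and 340.7 to 369.1 on the WD (−0.19 ± 0.10, adjusted p = 0.108). Its gene overlaps Cops6 and Ap4m1 on the opposite strand.

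The clamp, the nucleotide enzymes other than Rrm1 and the G1/S regulators did not pass. Pcna was at 506.0, 480.7 and 518.5 and at 432.9, 546.2 and 504.0, so the WD livers lay on both sides of the ND livers (−0.03 ± 0.12, adjusted p = 0.86). Tyms (thymidylate synthase) was at 199.3, 176.5 and 144.2 and at 148.5, 192.0 and 177.5, and its log2 fold change was 0.00 ± 0.19. Rrm2, the inducible subunit of ribonucleotide reductase, was at 111.2, 146.2 and 150.5 and at 122.3, 224.9 and 219.3, where the first WD liver was within the ND range. Rrm1, the other subunit, was called with a small change of 0.45 ± 0.16 (adjusted p = 0.0236). Ccne1 (cyclin E1) was at 23.0, 11.85 and 20.23 and at 32.03, 26.36 and 29.18, separate groups whose change of 0.69 ± 0.30 missed the threshold (adjusted p = 0.0649). Ccne2 was at 26.83, 31.61 and 32.88 and at 18.44, 32.13 and 34.7. E2f1, an activating E2F factor, was at 111.2, 129.1 and 132.8 and at 145.6, 159.8 and 145.9, also separate (0.28 ± 0.14, adjusted p = 0.1).

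Of the 2 factors of the second wave 1 was called. Foxm1 was at 20.44, 13.17 and 13.91 on the ND and at 60.17, 106.3 and 129.3 on the WD, a log2 fold change of 2.52 ± 0.54 (adjusted p = 0.000787). Mybl2 was near 10 counts in both, at 11.5, 2.634 and 11.38 and at 13.59, 6.591 and 7.887 (0.27 ± 0.56).

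**Figure D2:**
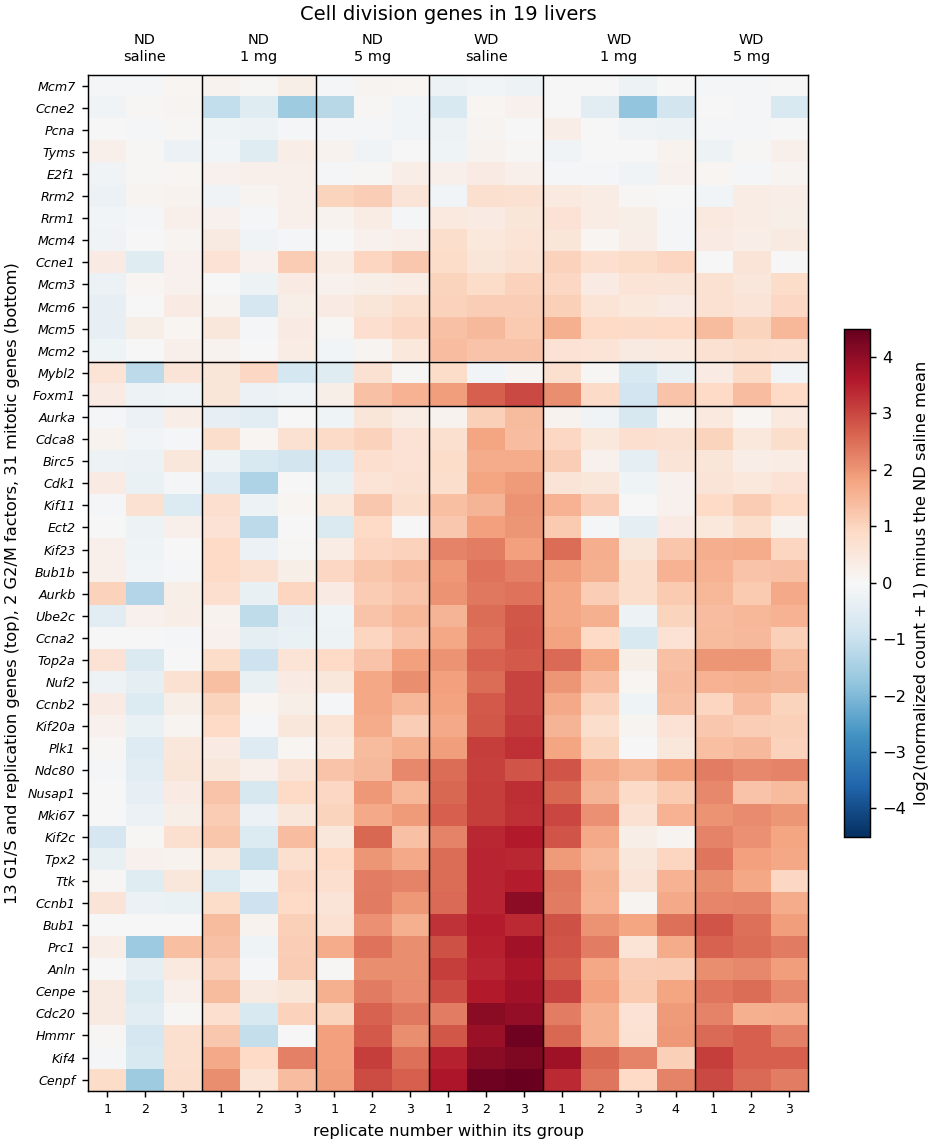
Each cell is 1 gene in 1 liver, as log2(normalized count + 1) minus the mean of the 3 ND saline livers, with livers grouped by diet and dose on the x axis and genes on the y axis ordered by their change on the WD within each phase. By mean mitotic level, WD saline replicates 2 and 3 are the darkest columns (6.75 and 6.9). Replicate 1 of WD saline (6) is near replicate 1 of the WD at 1 mg/kg/day (6.01). Rows such as Pcna, Tyms and Mcm7 stay pale throughout.

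Scaling the raw counts to each library's total, in place of the size factors, raised the median of all genes by 0.431 on the log2 scale in this comparison. All 31 mitotic genes were called higher under it too. The replication genes called rose to 10 of 13, Pcna turned to 0.40, and of all genes 51.7% were then higher and 9.09% lower. The replication median was 0.88 and the mitotic median 3.18, both with that shift in them. Against the ND livers given 1 mg/kg/day, an alternative chosen after seeing the data, WD saline was higher in 31 of 31 mitotic genes (median 2.38) and in 6 of 13 replication genes (median 0.38).

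**Figure D3:**
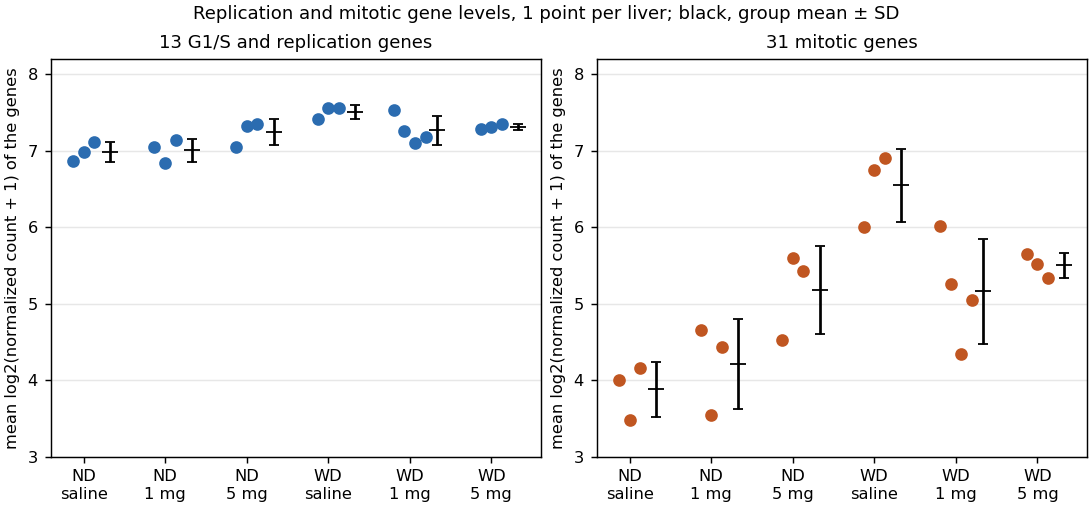
Mean of log2(normalized count + 1) over the 13 replication genes (left) and the 31 mitotic genes (right) in each liver (points), with the group mean ± SD (black), on the same y axis. The mitotic means run from 3.48 to 6.9 and the replication means from 6.84 to 7.56.

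As a mean over the genes, the mitotic level was 3.88 ± 0.36 (SD, n = 3) on the log2 scale in ND saline and 6.55 ± 0.48 (SD, n = 3) in WD saline. The replication level was 6.99 ± 0.13 and 7.51 ± 0.09. The mitotic mean minus the replication mean within each liver was −2.87, −3.5 and −2.96 in ND saline and −1.41, −0.81 and −0.66 in WD saline. The gap was thus smaller in each WD saline liver than in each ND saline liver. Only the change of the gap is read, since these counts were not divided by exon length. The levels are means over genes chosen with earlier results known, so no p is given for them.

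AN1284 at 1 mg/kg/day on the WD lowered 19 of the 31 mitotic genes against WD saline, where 12.6% of all genes were called lower. The log2 fold change was negative in 31 of 31, with a median of −1.47 and a range from −0.59 (Cdca8) to −1.98 (Hmmr). The livers of the groups did not overlap in 18 of the 31, against 18.2% of all genes. Of the 13 replication genes 1 was lower, Mcm2, and the median was −0.26. The median of all genes was 0.007.

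The mitotic cyclins and Cdk1 were all called lower at this dose. Ccnb1 was at 36.99, 21.25, 7.185 and 23.55 in the 4 treated livers, each below the lowest WD saline value of 42.7 (−1.90 ± 0.55, adjusted p = 0.0171). Ccna2 was at 108.6, 56.94, 18.48 and 47.09, where the first treated liver exceeded the lowest saline value of 101.9. Cdk1 was at 65.31, 61.19, 36.95 and 49.33, below the saline range. Plk1, at 44.07, 25.5, 12.32 and 17.94, fell by 1.93 ± 0.43 (adjusted p = 0.00292). Tpx2, which activates Aurora A on the spindle, fell by 1.89 ± 0.41 and Kif20a, a motor of cytokinesis, by 1.78 ± 0.35 (adjusted p = 0.00127), the smallest adjusted p of the mitotic genes here. Mki67 was at 567.4, 289.8, 110.9 and 205.2, and the first of these lay within the range of the saline livers (−1.21 ± 0.41, adjusted p = 0.0409). Cdc20, at 68.46, 42.49, 21.55 and 52.7, lay below the saline livers by a narrow margin in the first treated liver.

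Of the 12 mitotic genes that did not pass, Kif2c, Bub1, Birc5, Ube2c and Nuf2 had an adjusted p of 0.0505 to 0.0639. Kif23 was the furthest from passing, at −0.63 ± 0.37 (adjusted p = 0.243). Top2a, at 287.2, 165.7, 57.48 and 122.2, was a further case in which the first treated liver lay within the saline range. Aurkb, at 40.13, 25.5, 20.53 and 26.91, lay below all saline livers but did not pass (−1.07 ± 0.44, adjusted p = 0.0848).

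In the replication list Mcm2 was at 199.9, 193.8, 165.3 and 171.5 against 307.6 to 330.0 with saline (−0.79 ± 0.15, adjusted p = 0.000682). No overlap was left between these groups. Mcm5 was at 192.8, 117.3, 115.0 and 118.9, with its first liver above all saline livers, and Mcm6 at 314.0, 225.2, 203.2 and 191.7. Pcna, at 609.9, 495.5, 449.6 and 423.8, and Rrm2, at 181.0, 170.0, 139.6 and 132.3, overlapped with saline. Ccne1 was at 36.99, 30.59, 31.82 and 35.88, slightly above saline (0.21 ± 0.28). Foxm1 was at 70.04, 28.9, 8.211 and 39.24 and was called lower (−1.67 ± 0.50, adjusted p = 0.0213).

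The 4 livers at 1 mg/kg/day on the WD were the most uneven group. Replicate 1 was the highest of the 4 in 31 of 31 mitotic genes and replicate 3 the lowest in 28. Their mean mitotic levels were 6.01, 5.26, 4.34 and 5.05, of which the first is close to the lowest WD saline liver at 6 and the third lies among the ND livers without or with 1 mg/kg/day, whose highest values were 4.16 and 4.66. Left without replicate 1, 29 mitotic genes were called, and without replicate 3, 9 were. Left without WD saline replicate 2 the count was 7, and without WD saline replicate 3 it was 3. With replicates 1 and 3 both left out, a choice made after seeing the data, 13 were called and the median was −1.40. All 31 changes kept their sign whichever library was left out. Limma voom on the raw counts called 28 of 31 lower and scaling to totals 29, where 14.2% and 27.6% of all genes were lower.

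At 5 mg/kg/day on the WD, 3 of the 31 mitotic genes were called lower, where 7.03% of all genes were. These were Plk1 (−1.47 ± 0.46, adjusted p = 0.0403), Kif20a (−1.42 ± 0.38, adjusted p = 0.0175) and Bub1b (−0.83 ± 0.27, adjusted p = 0.0473). All 31 had a negative change, with a median of −1.01 against −0.006 over all genes, from −0.54 for Cdca8 to −1.62 for Cdc20. In 28 of the 31 the 3 treated livers lay below the 3 saline livers, which held for 19.7% of all genes. The count depended on the fit: voom on raw counts called 14 lower, a fit of these groups only called 20, scaling to totals 16, a pseudocount of 5 called 7 and leaving out 1 library 0 to 5. Of all genes, voom called 8.93% lower and scaling to totals 18.4%. The shares for the other fits are not given here, so their counts cannot be set against all genes.

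The treated livers at this dose lay close together. Mki67 was at 284.2, 306.1 and 277.1, against 455.2 or more with saline, a log2 fold change of −0.99 ± 0.43 (adjusted p = 0.157). Ccnb1 was at 33.83, 34.69 and 22.91, and Ccna2 at 81.19, 84.98 and 64.37. Cdk1 was at 63.79, 59.83 and 67.65 and Birc5 at 40.6, 33.82 and 34.91. None of these overlapped with saline. Plk1 was at 32.86, 35.55 and 26.19, and Bub1b at 54.13, 44.23 and 44.73. Cdc20, with 65.73, 42.49 and 43.64, had the lowest fold change (−1.62 ± 0.55, adjusted p = 0.0609). Cenpe was at 50.26, 53.76 and 41.46 and Ndc80 at 24.16, 21.68 and 22.91. Prc1 was at 69.59, 63.3 and 55.65, Anln at 42.53, 44.23 and 36.01, and Kif11 at 62.83, 75.44 and 63.28. The genes of the spindle and of cytokinesis were thus below the saline livers as well, although only Kif20a passed among them. Foxm1 was at 29.96, 42.49 and 29.46 (−1.46 ± 0.54, adjusted p = 0.0843).

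Of the replication genes Mcm2 was called lower, at 202.0, 217.7 and 213.9 (−0.58 ± 0.16, adjusted p = 0.0188). Mcm5 was at 169.1, 126.6 and 178.9, on both sides of the saline livers (−0.02 ± 0.26), and Mcm6 was at 238.7, 220.3 and 283.7. Pcna was at 479.4, 481.3 and 506.3. Ccne1, at 17.4, 26.88 and 17.46, had the second lowest change of the list (−0.51 ± 0.30, adjusted p = 0.309). The median of the 13 was −0.22.

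**Figure D4:**
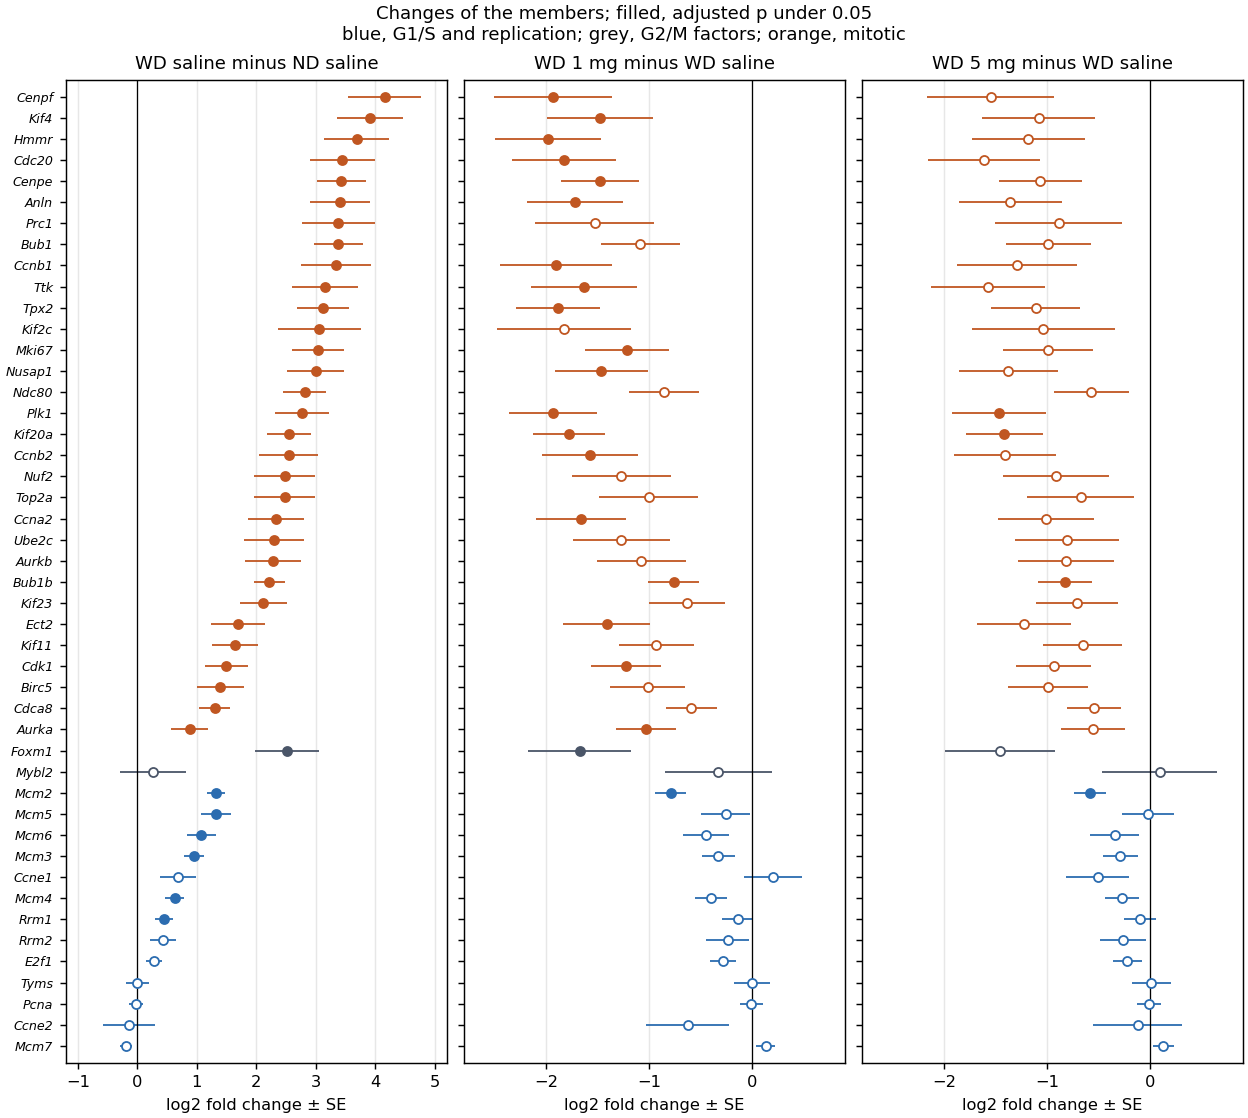
Log2 fold change ± SE (x axis) of each gene (y axis) for WD saline minus ND saline (left) and for AN1284 at 1 mg/kg/day (middle) and 5 mg/kg/day (right) minus WD saline, with filled points for an adjusted p under 0.05. Filled orange points number 31 on the left, 19 in the middle and 3 on the right.

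Both AN1284 groups on the WD share the WD saline livers as control, and WD saline is also a side of the diet comparison, so the 3 sets of changes are not independent. The genes called lower at both doses were Bub1b, Kif20a, Plk1 and Mcm2. Between the dose groups no gene was called: none of the 14743 genes (0%) passed in limma, 776 had an unadjusted p under 0.05, and voom also called none. Of the mitotic genes 0 of 31 had an unadjusted p under 0.05, and 29 were positive as 5 minus 1 mg/kg/day. The difference was 0.22 ± 0.41 for Mki67, 0.61 ± 0.55 for Ccnb1 and 0.80 ± 0.52 for Hmmr. With errors of this size the doses were not shown to be alike.

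Treated WD livers stayed above ND saline in many of the genes. At 1 mg/kg/day 18 of 31 mitotic and 5 of 13 replication genes were higher than in ND saline, where 16.9% of all genes were. At 5 mg/kg/day these were 25 of 31 and 4 of 13, against 16.7% of all genes. Mcm2, Mcm3, Mcm5 and Mcm6 were in both counts, and Kif4 had the highest change at each dose (2.43 and 2.83). Voom called 9 and 14 of the mitotic genes in these comparisons, where it called 14.7% and 14.3% of all genes higher. Against the ND livers at the same dose, 7 mitotic and 3 replication genes were higher at 1 mg/kg/day, where 8.05% of all genes were. A fit of those groups alone called 0 of the 46. At 5 mg/kg/day it was 0 of 46, where 1.7% of all genes were higher. An unadjusted limma p under 0.05 was found in 6 of the 46 and in 2440 of the 14743 genes tested. Voom called 1 of the 46 higher there, and 1.65% of all genes.

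On the ND, mitotic genes were called higher at the higher dose of AN1284, and none was called at the lower dose. At 1 mg/kg/day 0 of the 46 genes passed, where 2.9% of all genes were called higher and 1.74% lower, and voom also called 0. An unadjusted limma p under 0.05 was found in 6 of the 46 and in 2995 of the 14743 genes tested. The median mitotic change was 0.43, with 24 of 31 positive. At 5 mg/kg/day 13 of the 31 mitotic genes were called higher, where 6.27% of all genes were, and all 31 were positive with a median of 1.41. Voom called 1 of the 31, about the share of all genes it called higher (3.04%), with a median of 1.41. Most of these calls thus depended on the model. The groups did not overlap in 18 of 31, against 14.7% of all genes.

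The genes called were Cenpe, Cenpf and Ndc80 of the kinetochore, the checkpoint genes Bub1, Bub1b and Ttk, Kif4, Tpx2 and Hmmr of the spindle, Prc1 of the midzone, and Cdc20, Cdca8 and Mki67. Others of the same roles did not pass, among them Nuf2 (adjusted p = 0.0746), Nusap1 (0.059), Kif11 (0.173) and Kif2c (0.175). Mki67 was at 139.5, 227.1 and 261.4 with the drug, against 82.19 at most with saline (1.54 ± 0.43, adjusted p = 0.0352). Cenpe was at 28.27, 47.67 and 41.04 (2.04 ± 0.41, adjusted p = 0.00667), the smallest adjusted p of the mitotic genes in this comparison. Cdc20 was at 27.33, 89.26 and 73.45 (2.02 ± 0.55), and Cenpf had the highest change at 2.51 ± 0.61. Bub1b was at 33.93, 42.47 and 47.52 and Ndc80 at 11.31, 13 and 21.6. All treated livers lay above the saline livers in both genes.

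The cyclins were positive but did not pass. Ccnb1 was at 10.37, 37.27 and 28.08, with its first liver close to the saline value of 10.22 (1.63 ± 0.58, adjusted p = 0.0791). Ccna2 was at 25.45, 58.93 and 74.53 and Cdk1 at 33.93, 66.73 and 70.21, where the first liver was below the saline livers in each. Plk1 was at 16.96, 34.67 and 38.88. Replicate 1 was the lowest of this group in 30 of 31 mitotic genes, and its mean mitotic level of 4.52 lay apart from 5.6 and 5.43 in the others. Left without replicate 1, 2 or 3 of this group, 16, 3 and 2 mitotic genes were called, and left without a ND saline liver 6 to 8 were.

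Rrm2 was the one replication gene called on the ND at 5 mg/kg/day, at 271.4, 290.3 and 203.1 against 111.2 to 150.5 with saline (0.90 ± 0.22, adjusted p = 0.0195). It was also higher than in WD saline, whose highest value was 224.9, in 2 of the 3 livers. Mcm2 was at 115.9, 137.8 and 177.1, close to saline (0.17 ± 0.16), and Mcm5 at 65.03, 105.7 and 122.1 (0.58 ± 0.26, adjusted p = 0.144). E2f1 changed by 0.11 ± 0.14 and Pcna by −0.08 ± 0.12. The median of the 13 was 0.15. The 2 ND dose groups differed in 0 of the 46 genes after adjustment and in 6 of all genes tested (0.0407%). Here 17 of the 46 had an unadjusted limma p under 0.05, as did 1797 of the 14743 genes tested.

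The effect of AN1284 differed between the diets. At 5 mg/kg/day the difference of the effects, WD minus ND, was negative in 31 of 31 mitotic genes and passed in 20, where 11.6% of all genes passed in that direction. The median was −2.47, against −0.013 over all genes. Cenpe had the smallest adjusted p, with −3.10 ± 0.57 (adjusted p = 0.00185), from a change of 2.04 on the ND and −1.06 on the WD. For Cdc20 the difference was −3.63 ± 0.77 and for Mki67 −2.53 ± 0.62 (adjusted p = 0.0106). Foxm1 also passed (−2.50 ± 0.76, adjusted p = 0.0273), as did Rrm2 (−1.16 ± 0.32), Ccne1 (−1.34 ± 0.43) and Mcm2 (−0.75 ± 0.22). At 1 mg/kg/day 13 mitotic genes and Mcm2 passed, where 11.3% of all genes did, with a median of −1.74 over the mitotic genes. Voom called 7 of the 46 at that dose, where it called 10.3% of all genes in that direction. The differences use both saline groups, so they contain the diet comparison as well as the treated livers.

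**Figure D5:**
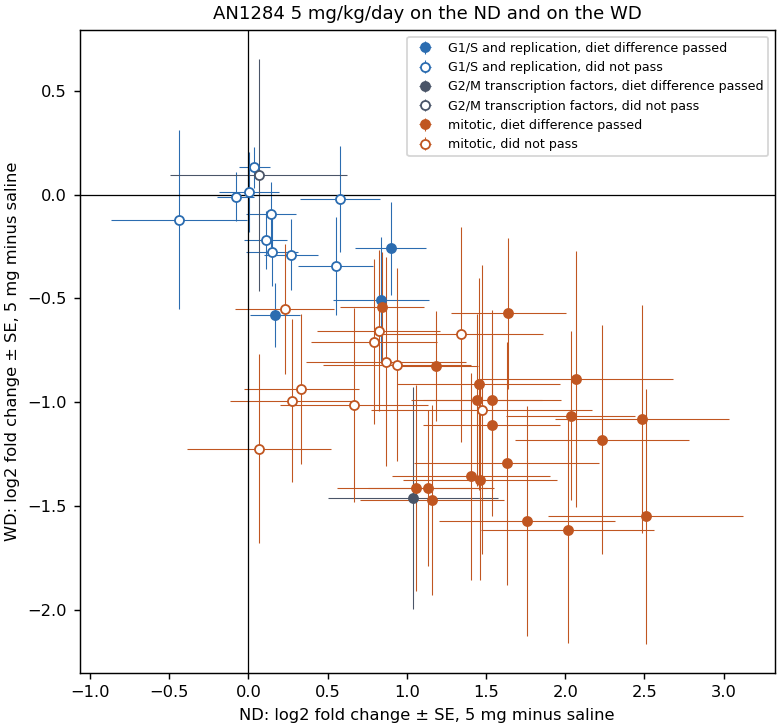
Change of each gene with AN1284 at 5 mg/kg/day against saline on the ND (x axis) and on the WD (y axis), as log2 fold change ± SE, with filled points where the difference between the diets had an adjusted p under 0.05. The 31 mitotic genes lie right of 0 and below 0, and the replication genes lie nearer the origin.

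Ordered by group mean, WD saline was the highest of the 6 groups in 31 of 31 mitotic genes. The lowest was ND saline in 24 and ND with 1 mg/kg/day in 7. The mean mitotic levels were 4.21 ± 0.59 (SD, n = 3) at 1 mg/kg/day and 5.18 ± 0.58 (SD, n = 3) at 5 mg/kg/day on the ND, and 5.16 ± 0.69 (SD, n = 4) and 5.5 ± 0.16 (SD, n = 3) on the WD. The mean of the WD livers at 5 mg/kg/day lay within 1 SD of the means of the ND livers at 5 mg/kg/day and the WD livers at 1 mg/kg/day, although those means lay below its own 3 livers. In the replication genes WD saline was the highest in 7 of 13 and ND saline the lowest in 7, and the group means ran from 6.99 ± 0.13 to 7.51 ± 0.09, a smaller range with the same groups at its ends. For the gap between the phases, the difference of the median changes, mitotic minus replication, was 2.32 for the WD with saline, −1.21 and −0.79 for AN1284 at 1 and 5 mg/kg/day on the WD, and 0.36 and 1.26 for the same doses on the ND.

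Other genes of each phase were taken from lists not used to choose the 46. Of 58 other mitotic genes tested, 45 were higher and 2 lower on the WD with saline, with a median of 1.78, where 28.1% of all genes were higher and 25% lower. Racgap1, a regulator of cytokinesis, changed by 3.57 ± 0.43, Aspm, a spindle pole protein, by 3.42 ± 0.41, Arhgap11a by 2.43 ± 0.30 and the centrosomal kinase Nek2 by 1.81 ± 0.22. AN1284 on the WD lowered 25 of the 58 at 1 mg/kg/day (median −0.8), against 12.6% of all genes, and 6 at 5 mg/kg/day (median −0.8), against 7.03%. On the ND at 5 mg/kg/day 14 were higher, against 6.27% of all genes, and 1 was lower (median 0.91). Of 38 other replication genes tested, 14 were higher and 5 lower on the WD, with a median of 0.21, against the same 28.1% and 25% of all genes. Gins2, a subunit of the active helicase, rose by 2.20 ± 0.27 and Cdt1, which loads the MCM complex, by 1.12 ± 0.16. Mcm10 and Tk1 went the other way. Mcm10, an assembly factor of the replication fork, averaged 3132 ± 676.2 (SD, n = 3) in ND saline and 436.3 ± 79.06 (SD, n = 3) in WD saline (−2.83 ± 0.26), and rose with AN1284 on the WD by 1.66 ± 0.24 at 1 and 1.16 ± 0.26 at 5 mg/kg/day. Tk1 (thymidine kinase) averaged 618.5 ± 138.2 and 167.3 ± 37.53. Its gene overlaps Afmid on the opposite strand by 169 bases.

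Upstream of both phases, 8 of 26 genes of cell cycle entry were higher and 6 lower on the WD, shares near the 28.1% and 25% of all genes. The 6 lower were Ccnd3, Cdk2, E2f5, Tfdp2, Lin37 and Lin52, with log2 fold changes from −0.68 to −0.40, named after their values were seen. Ccnd1 (cyclin D1), which couples growth signals to the cycle, averaged 398.9 ± 21.33 (SD, n = 3) in ND saline and 2388 ± 572.8 (SD, n = 3) in WD saline (2.55 ± 0.19, adjusted p = 1.83e-08). It fell by 1.01 ± 0.17 and by 0.75 ± 0.19 at 1 and 5 mg/kg/day on the WD and rose by 0.86 ± 0.19 at 5 mg/kg/day on the ND. Wee1, the kinase that holds CDK1 inactive, was 1.68 ± 0.20 higher with the diet, and the doses of AN1284 on the WD took it down again (−1.38 ± 0.19 and −1.37 ± 0.20). Rbl1 (p107) and Cdk6 rose by 1.68 ± 0.26 and 0.95 ± 0.15. None of the 7 CDK inhibitors passed on the WD or with AN1284 on the WD. Cdkn1a (p21), which stops the cycle, averaged 2451 ± 940.6 in ND saline and 947.2 ± 216.0 in the ND livers at 5 mg/kg/day, a fall of 1.32 ± 0.30 (adjusted p = 0.0146). The summed level of the 7 inhibitors was 2412.2 to 4260.2 in ND saline. It was as low at 1 mg/kg/day on the ND (1907.5 to 2101.8) as at 5 mg/kg/day (1670.1 to 2113.7), although 0 of the 7 passed at 1 mg/kg/day.

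Markers of other liver cells moved with some of these comparisons. Of all genes, 28.1% were called higher and 25% lower on the WD, and 6.27% higher on the ND at 5 mg/kg/day. With AN1284 on the WD at 1 and 5 mg/kg/day, 10.3% and 5.51% were higher and 12.6% and 7.03% lower. Macrophage and Kupffer cell markers were higher in 10 of 12 on the WD with saline, with a summed level of 22146 to 41693 against 8356 to 13570 in ND saline. They were also higher in 9 of 12 on the ND at 5 mg/kg/day, with 19416 to 31238. In that comparison 3 of 10 T and NK cell markers (median 1.42, sums of 293.1 to 734.5 against 209.4 to 299) and 3 of 10 endothelial markers (4802 to 6550 against 3629 to 3875) were higher too. Of 10 monocyte and neutrophil markers 1 was higher, near the 6.27% of all genes (median 1.3, 398.7 to 1052 against 183.1 to 392.2). With AN1284 on the WD, 3 of 12 macrophage markers were higher and 0 lower at 1 mg/kg/day, 0 of 12 passed at 5 mg/kg/day, and the sums were 30895 to 45337 at 1 mg/kg/day and 31025 to 37215 at 5 mg/kg/day. Stellate cell and fibroblast markers were higher in 10 of 12 on the WD, with 19692 to 28697 against 6304 to 9126, and lower in 10 and 8 of 12 with the doses, with 5623 to 10551 and 7386 to 11561. Cholangiocyte markers were higher in 4 of 8 on the WD (median 1.23) and lower in 8 and 5 of 8 with the doses, with sums of 2366 to 3576 in ND saline, 7747 to 13247 in WD saline, 1533 to 2292 at 1 mg/kg/day and 1716 to 4025 at 5 mg/kg/day. Hepatocyte markers were lower in 13 of 14 on the WD, with 1 higher, and higher in 13 and 8 of 14 with the doses. Lipid-associated macrophage markers were higher in 9 of 10 on the WD, with 1 lower, and lower in 6 and 4 of 10 with the doses. Endothelial markers were higher in 8 of 10 on the WD and monocyte and neutrophil markers in 6 of 10. Of 10 T and NK cell markers 1 was higher and 1 lower, and of 6 B and plasma cell markers 1 was higher. These last shares were below those of all genes. The neutrophil marker Ly6g, not tested, was at 0 in 14 libraries. The part of these cells in the mitotic levels was not tested.

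Taken from start to end with introns, 8 of the 46 genes overlap an expressed gene on the opposite strand, namely Mcm7, Ccne2, Ccna2, Cdca8, Kif4, Kif20a, Prc1 and Cdc20. The strand setting of the counting is not given in the sources used here, so their reads could include reads of the neighbour. The overlap was 53 bases for Cdc20 and 21810 bases for Prc1, whose exons total 8225 bases. Overlap of the exons alone was not computed.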

How the data were processed

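Poly-A RNA of 19 mouse livers was sequenced with a stranded kit, 1 library per mouse. The authors' processing notes name cutadapt 1.18, TopHat2 2.1.1, HTSeq 0.6.0, DESeq2 1.22.1 and GRCm38. The deposited table holds raw read counts per gene and the authors' normalized counts, which are the raw counts divided by a size factor per library. Of 54838 genes, 20433 had a normalized value and 6252 had question marks in the raw columns, so the count model planned at first was not run and limma's voom on the raw counts served as an alternative. The authors' own comparison columns (fold changes and p-values) were not used.

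Values were taken as log2(normalized count + 1), and 14743 genes with at least 10 in at least 3 libraries were fitted in 1 model of the 6 groups with limma 3.58.1 in R 4.3.3 (trend and robust), with Benjamini-Hochberg adjustment over all genes and a threshold of 0.05. Depth was 23326800 to 32596067 counted reads per library, so counting error matters mainly for genes with a few reads. Levels per kilobase used GENCODE M21 exons. Any of the 46 genes could be named, and for other cell cycle lists up to 4 genes with the smallest p in the diet comparison, with p21 (Cdkn1a) added after its value was seen. The genes and lists were chosen with earlier results of these data known. The scripts were tested on simulated data. Other pseudocounts, filters, scalings, samples in the fit, variance models and a replicate block were tried, and each library was left out in turn.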

Additional observations from a re-analysis of the deposited data

Results flagged for a closer look

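The change with AN1284 differed between the diets in 14 of the 46 genes at 1 mg/kg/day by a test of the difference itself (limma, adjusted p from 0.00443 to 0.0443). Of these 14 calls, 7 held whichever library was left out. Cdc20 was lost in 10 of 13 such runs, Ccnb2, Plk1, Cdca8 and Nusap1 in 9 each and Tpx2 in 7. The differences, WD minus ND on the log2 scale, were −0.96 for Mcm2, −2.02 for Ccnb2, −1.89 for Plk1, −1.10 for Cdca8, −1.96 for Bub1, −1.37 for Bub1b, −2.27 for Cenpe, −3.30 for Cenpf, −3.10 for Kif4, −1.95 for Tpx2, −1.96 for Nusap1, −2.21 for Kif20a, −2.46 for Anln and −2.19 for Cdc20.

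At 5 mg/kg/day the difference passed in 24 genes (limma, adjusted p from 0.00185 to 0.0349). Of these 24 calls, 17 held whichever library was left out. The values were −0.75 for Mcm2, −1.16 for Rrm2, −1.34 for Ccne1, −2.50 for Foxm1, −2.53 for Mki67, −2.92 for Ccnb1, −2.47 for Ccnb2, −2.63 for Plk1, −1.39 for Cdca8, −2.43 for Bub1, −2.01 for Bub1b, −3.33 for Ttk, −2.21 for Ndc80, −2.37 for Nuf2, −3.10 for Cenpe, −4.06 for Cenpf, −3.56 for Kif4, −2.65 for Tpx2, −3.41 for Hmmr, −2.84 for Nusap1, −2.55 for Kif20a, −2.95 for Prc1, −2.76 for Anln and −3.63 for Cdc20. Both saline groups enter each difference.

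In the group of 4 livers at 1 mg/kg/day on the WD, Mcm5 in replicate 1 stood apart from the others, at 192.8 normalized counts against 117.3, 115 and 118.9. It was the only one of the 46 genes in that group whose gap to the next liver was that large for the range of the group. Chance flags about 1 in 20 such sets of values and 46 were looked at, so 1 flag is within what chance gives.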

How the results depend on the processing

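Over 5811 combinations of a gene's comparison and an alternative, 5308 kept their side of the threshold, 300 lost a call, 202 gained one and 1 changed sign and passed. That one was Pcna on the WD, which went to 0.40 (adjusted p = 0.0174 in limma) when counts were scaled to total reads. Changes of sign that did not pass were not counted. Scaling to totals also took the replication genes called on the WD to 10 (median 0.88), where 51.7% of all genes were higher. With it, AN1284 on the WD lowered 35 of the 46 genes at 1 mg/kg/day (29 mitotic, 5 replication, replication median −0.49). At 5 mg/kg/day it lowered 19 (16 mitotic, 2 replication, replication median −0.44). Of all genes, 27.6% and 18.4% were then lower at the 2 doses. The replication median on the ND became 0.23 at 1 and 0.30 at 5 mg/kg/day. At the higher dose 2 replication genes were called, where 13.2% of all genes were higher. The differences between the diets passed in 32 and 37 genes, where 32.9% and 30.9% of all genes passed in that direction. For 5 mg/kg/day against WD saline, a pseudocount of 5 called 8 genes (7 mitotic), a minimum of 50 called 2 (1 mitotic), voom 16 (14 mitotic) and the compared groups alone 22 (20 mitotic). Voom called 2 genes (1 mitotic) on the ND at 5 mg/kg/day, 14 and 18 for the doses on the WD against ND saline, 7 for the diet difference at 1 mg/kg/day and 1 between the diets at 5 mg/kg/day, where a minimum of 50 also called 1. The shares of all genes that voom called are given above with each comparison. No shares are given for the pseudocounts, the minimums, the compared groups alone or the replicate block. Their counts therefore cannot be set against all genes. The compared groups alone called 0 between the diets at 1 mg/kg/day. Without WD replicates 1 and 3 at 1 mg/kg/day, 2 replication genes were called.

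The sample labels do not say whether equal replicate numbers pair the mice, and the correlations showed no clear pairing. They cannot exclude a weak one, since 7, 2 and 3 of 15 pairs exceeded 0.1 for numbers 1, 2 and 3. Same-numbered livers had median correlations of 0.08, −0.02 and 0.03 for numbers 1, 2 and 3, and 8 of 18 livers correlated best with their own number. With the number as a replicate block, 13 genes (11 mitotic) were called at 1 mg/kg/day and 2 (1 mitotic) at 5 mg/kg/day on the WD, 8 (7 mitotic) on the ND at 5 mg/kg/day, 4 between the diets at 1 mg/kg/day and 8 for the diet difference at that dose.

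Leaving out 1 library gave 36 to 39 genes called on the WD (30 to 31 mitotic, median 2.48 to 3.01, and 5 to 7 replication, median 0.38 to 0.56). It gave 4 to 32 at 1 mg/kg/day on the WD (3 to 29 mitotic, median −1.81 to −1.18, and 1 to 2 replication, median −0.31 to −0.19) and 0 to 5 at 5 mg/kg/day (0 to 5 mitotic, median −1.3 to −0.86, and 0 to 1 replication, median −0.26 to −0.13). On the ND it gave 0 to 0 at 1 mg/kg/day (mitotic median 0.13 to 0.7, replication median −0.01 to 0.18) and 3 to 17 at 5 mg/kg/day (2 to 16 mitotic, median 1.13 to 1.73, and 0 to 1 replication, median 0.08 to 0.26). Mitotic minus replication medians ran from 2.06 to 2.45 on the WD, −1.5 to −0.99 and −1.06 to −0.7 for the doses on the WD, and 0.05 to 0.52 and 1 to 1.53 for the doses on the ND. Against ND saline the doses on the WD gave 12 to 29 and 15 to 24, the diets compared at each dose 1 to 17 and 0 to 1, and the diet differences 7 to 24 and 18 to 30. Calls that held in every such run numbered 36 of 38 on the WD, 4 of 21 and 0 of 4 for the doses on the WD and 1 of 14 on the ND at 5 mg/kg/day. The causes were not tested. Depth limits the genes with a few reads in ND livers, such as Ttk and Bub1.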
